A study of Mus musculus with 2 samples.

Results

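The genes described here are 9 of the 13774 genes in the count table: Retnla, Lyve1, Folr2, Fcna, Cd163, Cd209d, Cd209f, Cd209g and Fcrls. They encode scavenger receptors, lectins and other surface or secreted proteins of tissue-resident macrophages. They were chosen for their measured levels and joint detection in the C1q-positive cells of the normal mammary gland, and for their low levels or absence in monocytes of that gland and in tumor macrophages. Those levels and contrasts are therefore given as a description, with no test. C1q-positive cells were cells with at least 3 unique molecular identifiers (UMIs, each counting 1 captured transcript) summed over C1qa, C1qb and C1qc, and there were 94 of them among 1801 cells of the normal library.

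Resident macrophages live within tissues, clear debris and soluble waste by endocytosis, and in many tissues they include perivascular cells that carry the hyaluronan receptor LYVE1, the folate receptor FOLR2 and the haemoglobin scavenger CD163. Other resident macrophages carry more MHC class II and present antigen. The C1q genes encode the subunits of the first complement component and mark resident and tumor macrophages, while nonclassical monocytes patrol vessels and are marked in mice by Ace and Treml4.

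The libraries came from female C57BL6/J mice of 8 weeks that carried Cdh5Cre-ERT2 and a ZSGreen reporter (Cdh5Cre-ERT2:ZSGreenl/s/l) and had received tamoxifen. In the tumor arm 1000000 cells of EO771, a syngeneic mammary tumor line, were placed in the mammary fat pad and grew for about 3 weeks. Tumor (TEC, for tumor endothelial cells) and normal mammary tissue (NEC, for normal endothelial cells) were dissociated, live ZSGreen-positive cells were sorted, and 10x Genomics 3′ libraries were made. Cdh5 drives the recombinase in endothelial cells, so the sort was aimed at endothelium. The deposited count table carries the tag negs, which no label explains, so whether its cells were positive for ZSGreen is uncertain. There was 1 library for each tissue, neither the number nor the pooling of mice is stated in the labels, and no difference between tissues has a replicate check.

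The normal library held 5228289 UMIs with a median of 2264 per cell, and the tumor library 16444540 UMIs in 1000 cells with a median of 8596. The shallowest cells had 1157 and 6376 UMIs, so shares of cells are also given with each cell thinned to 1000 UMIs. Genes listed with counts were present in at least 3 cells of the normal and at least 5 cells of the tumor library, and Retnla, Cd163, Cd209f and Cd209g were listed at 0 for the whole tumor library, as were 4.49% of all genes. Cells of both libraries shared 2 barcodes, whose cells held 0 UMIs of the 9 genes. All intervals are exact 95% intervals for counting error only.

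The C1q-positive cells of normal gland carried macrophage markers and almost no endothelial transcripts. All 10 pan-macrophage markers were present, at 17038 counts per 1000000 UMIs (CPM) in sum, against 19184 CPM in tumor C1q-positive macrophages. Of 9 listed endothelial markers 6 were at 0, Cdh5, Kdr, Tek, Cldn5, Emcn and Flt4 among them, and the sum was 4 UMIs (13.2 CPM). The sums were 26.4 CPM for 6 B cell markers, 13.2 CPM for 6 T cell markers, 62.8 CPM for 7 dendritic cell markers and 13.2 CPM for 6 fibroblast markers. Of the 94 cells, 60 also met the myeloid minimum set for the other macrophage and monocyte classes, 1% of UMIs from 7 myeloid genes with at least 1 UMI of Csf1r, Cd68 or Adgre1.

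Cd209f and Cd209g, the pair of these genes with the highest correlation over the C1q-positive cells, are shown first by their promoters, because these windows hold a long identical run. The RefSeq sequences (GRCm38.p6) cover 250 bases before to 50 bases after the start site, at chr8:4105715-4106014 on the minus strand for Cd209f and chr8:4134486-4134785 on the plus strand for Cd209g. Capitals mark the longest run with no difference between them.
Cd209f: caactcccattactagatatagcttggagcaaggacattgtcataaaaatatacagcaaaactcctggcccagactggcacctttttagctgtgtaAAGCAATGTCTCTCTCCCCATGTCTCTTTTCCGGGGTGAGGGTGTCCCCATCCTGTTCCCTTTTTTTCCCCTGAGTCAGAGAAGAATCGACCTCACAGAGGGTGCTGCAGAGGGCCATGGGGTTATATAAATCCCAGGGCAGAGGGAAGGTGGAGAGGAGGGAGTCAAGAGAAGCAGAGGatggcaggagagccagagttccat
Cd209g: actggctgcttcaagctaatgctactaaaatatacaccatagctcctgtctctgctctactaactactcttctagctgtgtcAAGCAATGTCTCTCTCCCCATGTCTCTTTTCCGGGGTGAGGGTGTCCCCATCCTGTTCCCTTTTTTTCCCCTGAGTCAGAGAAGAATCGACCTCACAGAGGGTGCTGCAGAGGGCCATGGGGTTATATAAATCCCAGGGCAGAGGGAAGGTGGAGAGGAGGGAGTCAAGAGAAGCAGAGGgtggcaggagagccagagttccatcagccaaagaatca
The shared run was 180 bases long and was found whole in 2 of 32851 promoters of this length, those of Cd209f and Cd209g. In global alignment the pair was 91.8% identical over 281 aligned bases. Cd209d, a member of the same gene cluster, was 61.9% identical to Cd209f and 56.0% to Cd209g.

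Retnla, by far the most abundant of the genes, is shown with the motifs found in its window at chr16:48842359-48842658 on the plus strand. Capitals mark, from left to right, TTCCTC (the PU.1 box GAGGAA on the other strand), TTCACAAGAA (the STAT6 form TTCNNNNGAA), TTGCTAAA (the C/EBP form TTGCNNAA) and TCAGCA (the MAF element TGCTGA on the other strand). PU.1 and MAF factors act in macrophages broadly, and STAT6 carries the interleukin-4 signal that is known to induce Retnla.
Retnla: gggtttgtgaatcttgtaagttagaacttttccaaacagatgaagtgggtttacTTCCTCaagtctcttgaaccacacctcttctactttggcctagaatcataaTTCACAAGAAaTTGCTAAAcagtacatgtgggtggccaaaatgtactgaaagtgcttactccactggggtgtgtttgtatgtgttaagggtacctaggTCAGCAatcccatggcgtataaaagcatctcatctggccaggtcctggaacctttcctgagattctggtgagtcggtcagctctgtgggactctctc
Promoters were matched for 8 of the 9 genes and Lyve1 was not matched. On either strand GAGGAA was present for 4 genes (Cd209d, Fcna, Fcrls and Retnla) and in 28.3% of all promoters, and TGCTGA for 5 genes (those 4 and Folr2) and in 19.5%. TTGCNNAA and TTCNNNNGAA were present for Retnla alone among the 8 and in 10.8% and 6.95% of all promoters. A match is a description of letters in these windows.

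Retnla encodes RELM-alpha, a small secreted protein that alternatively activated macrophages release. The gene lies on chromosome 16, 48842551 to 48844461 on the plus strand, with 4 exons (GRCm38, here and below, with gene spans from GENCODE M21). It held 12804 UMIs in the 94 C1q-positive cells, 42319 CPM (41589 to 43058), and 86 of the 94 cells (91.5%) had at least 1. The median cell held 66.5 UMIs of Retnla, 3.17% of its transcripts, and the cell with the highest share gave 26.1% of its UMIs to it. Thinned to 1000 UMIs, 90.4% of cells still held it.

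Retnla was not confined to these cells. They held 56.0% of its UMIs in the normal library, and other normal myeloid cells held 30.2%. The other myeloid cells met the myeloid minimum with under 3 C1q UMIs and without Ace or Treml4. The 375 remaining normal cells held 10.2%, at 1910 CPM, and 47 of them had 10 or more UMIs. Of the 73 other normal myeloid cells, 38 held 14 to 810 UMIs of Retnla each and the other 35 at most 9. B cells stood at 133.6 CPM (21.9% of 593 cells) and T cells at 117.9 CPM (25.3% of 640 cells). These levels serve here as a background, and whether they come from free RNA was not tested. Retnla stood at 4544 CPM in the 26 Ace or Treml4 monocytes, yet 413 of their 422 UMIs lay in 1 cell, and no other of these cells held more than 3.

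The scavenger and endocytic receptors were Lyve1, Folr2 and Cd163. Lyve1, a receptor for hyaluronan (chromosome 7, 110850607 to 110863239, minus strand, 6 exons), held 59 UMIs, 195.0 CPM (148 to 252), in 35 of the 94 cells (37.2%). Folr2, folate receptor beta (chromosome 7, 101839988 to 101857194, minus strand, 6 exons), held 136 UMIs, 449.5 CPM (377 to 532), in 56 cells (59.6%). Cd163, the scavenger receptor for haemoglobin bound to haptoglobin (chromosome 6, 124304656 to 124330527, plus strand, 17 exons), held 39 UMIs, 128.9 CPM (91.7 to 176), in 26 cells (27.7%). After thinning to 1000 UMIs, which left out no cell, 16.0% of the cells held Lyve1, 31.9% Folr2 and 13.8% Cd163.

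Each of these receptors was present in at most 0.169% of the B cells and at most 0.156% of the T cells, so their presence in C1q-positive cells stood far above the share in lymphocytes. The C1q-positive cells held 98.3% of the Lyve1, 95.1% of the Folr2 and 79.6% of the Cd163 UMIs of the normal library. Lyve1 was at 0 in monocytes and in other normal myeloid cells. Folr2 overlaps the annotations Gm10602 and Gm45319 on the opposite strand, and whether counting used strand is not stated, so reads of such pairs cannot be told apart.

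The lectins and lectin-like genes were Fcna, Cd209d, Cd209f and Cd209g. Fcna encodes ficolin A, a soluble lectin that starts the lectin pathway of complement (chromosome 2, 25624666 to 25628030, minus strand, 10 exons; it overlaps the antisense gene Fcnaos). It held 110 UMIs, 363.6 CPM (299 to 438), in 42 cells (44.7%). The Cd209 genes encode C-type lectins of the DC-SIGN family, and all 7 mouse members lie between 3743397 and 4137707 on chromosome 8. Cd209f (4102787 to 4105835, minus strand, 8 exons) held 109 UMIs, 360.3 CPM (296 to 435), in 34 cells (36.2%).

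Cd209g (4134098 to 4137707, plus strand, 8 exons) held 63 UMIs, 208.2 CPM (160 to 266), in 25 cells (26.6%), and Cd209d (3871824 to 3878555, minus strand, 7 exons) held 32 UMIs, 105.8 CPM (72.3 to 149), in 21 cells (22.3%). All 109 Cd209f UMIs of the normal library lay in C1q-positive cells, as did 98.2% of Fcna and 96.9% of Cd209g. The exception was Cd209d, of which these cells held 29.6%.

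The transcripts of Cd209f and Cd209g shared 433 of 1137 windows of 50 bases, so reads from those stretches cannot be told apart. In their last 400 bases, where 3′ libraries take most reads, the aligned transcripts were 86.8% identical and shared no such window. Cd209d shared no window of 50 bases with any other Cd209 gene, and Retnla none with the other resistin-like genes.

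Fcrls encodes an Fc receptor-like scavenger protein known in mice as a marker of microglia and some other macrophages (chromosome 3, 87250758 to 87263738, minus strand, 8 exons). It held 147 UMIs, 485.9 CPM (410 to 571), in 47 of the 94 cells (50%). Other normal myeloid cells stood at 326.5 CPM (273 to 388), a ratio of 1.49 (1.17 to 1.90), so Fcrls like Retnla was shared with them. C1q-positive cells held 36.7% of its UMIs in the normal library, other myeloid cells 32.2% and the remaining normal cells, in none of the named classes, 26.7% (43 of 375 cells).

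In the C1q-positive cells the order by level was Retnla, Fcrls, Folr2, Fcna, Cd209f, Cd209g, Lyve1, Cd163 and Cd209d. Retnla stood apart, while the intervals of Fcrls, Folr2, Fcna and Cd209f overlapped from each to the next, as did those of Cd209g and Lyve1 and those of Lyve1, Cd163 and Cd209d. These levels are CPM of a 3′ library, in which a transcript is counted once whatever its length.

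**Figure D1:**
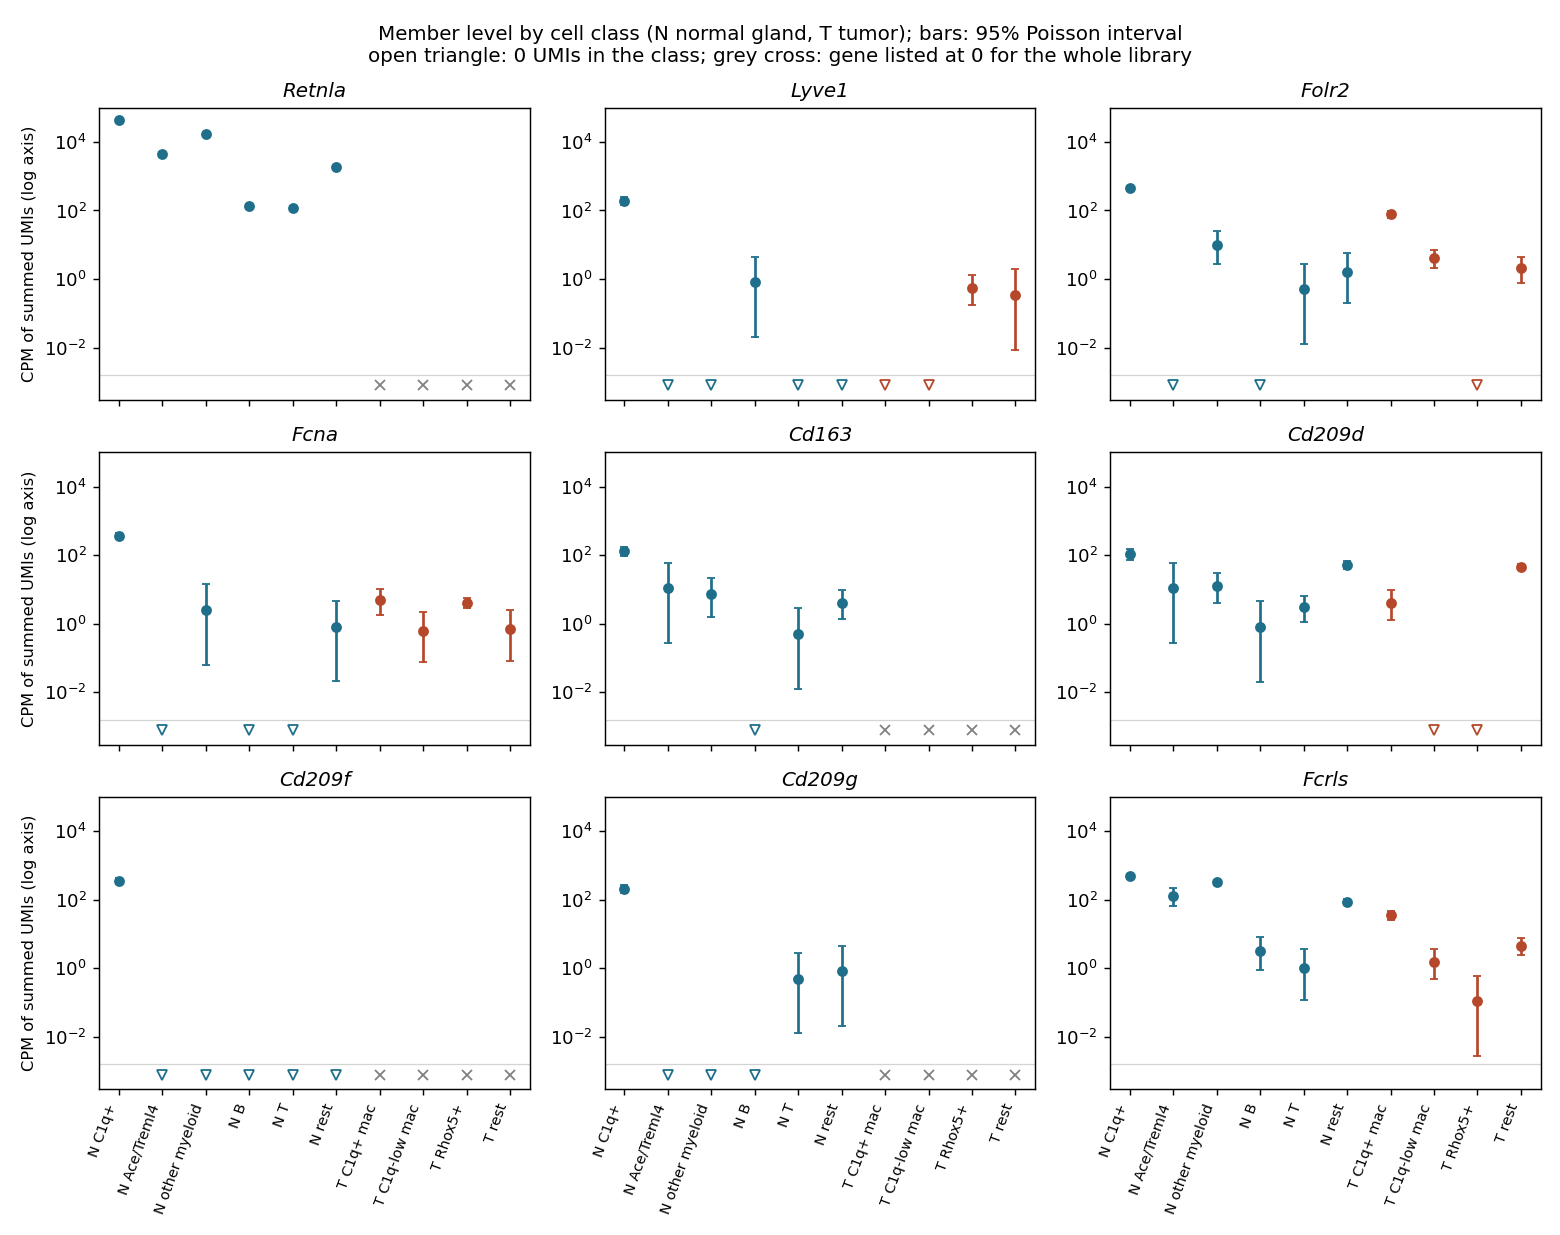
Level of each gene (CPM of summed UMIs, log axis) in 10 cell classes of normal gland (N, blue) and tumor (T, red), with exact 95% Poisson intervals; open triangles mark 0 UMIs and grey crosses a gene listed at 0 for the library. Cd209f has a level in the C1q-positive cells alone (360.3 CPM), while Retnla and Fcrls also reach other normal myeloid cells and Cd209d the remaining cells of both tissues.

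The genes other than Retnla were detected less often in cells under the C1q threshold. Normal cells with 1 or 2 C1q UMIs numbered 32, and 6 of them held one of the genes other than Retnla, namely Fcrls in 5 and Cd209d in 1. By class these 32 were 9 B cells, 11 T cells, 3 other myeloid cells and 9 of the remaining cells. The 4 cells with 3 or 4 C1q UMIs held Lyve1 in 1 and Fcrls in 1. Of the 11 cells with 5 to 9 C1q UMIs, 10 held at least 1 of the genes other than Retnla, as did 73 of the 79 cells with 10 or more.

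Against the 26 Ace or Treml4 monocytes of the same library, all 7 genes that reached 50 UMIs over both classes were higher in the C1q-positive cells. Over all 875 genes with that many UMIs, 19.0% were higher and 10.5% lower by the same rule, a ratio of at least 2 with an interval that excludes 1. The genes were chosen on this contrast, so nothing is read from their count. With scaling by a trimmed mean of log ratios (TMM), which shifted log2 ratios by 0.39, the calls over all genes were 227 higher and 44 lower in place of 166 and 92.

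Folr2 was at least 13.9-fold higher than in monocytes, Fcna at least 11.3-fold, Cd209f at least 11.2-fold, Cd209g at least 6.45-fold and Lyve1 at least 6.04-fold, taking 3 counts over the class as the floor for 0 UMIs. Monocytes held 1 UMI each of Cd163 and Cd209d, ratios of 12 (2.03 to 485) and 9.82 (1.64 to 400) that fell under the UMI minimum. Retnla was 9.31-fold higher (8.45 to 10.3) and Fcrls 3.76-fold (2.09 to 7.44). A single cell of the monocyte class held 413 Retnla and all 12 Fcrls UMIs with 1 Treml4 UMI and 0 of Ace, among 8805 UMIs. Without the cell richest in the gene in each class, the log2 ratio of Retnla rose from 3.22 to 8.49. It then rested on 9 monocyte UMIs at 107.1 CPM, under the levels in B and T cells. For Fcrls the log2 ratio of 1.91 became a bound of 3.68 from the floor, because the other monocytes held 0 UMIs.

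Other normal myeloid cells were divided by Retnla. The 38 cells with 10 or more Retnla UMIs held Fcrls in 31 (81.6%), at 524.5 CPM (438 to 623), and the 35 cells below 10 held 0 UMIs of Fcrls. Among the 38, Lyve1, Cd209f and Cd209g were at 0, Fcna was in 1 cell, Folr2 in 2, Cd163 in 3 and Cd209d in 5. The same 38 cells carried Ear2, a ribonuclease gene that is also on the nonclassical monocyte list, in 86.8%, the lysozyme gene Lyz1 in 76.3%, the fibronectin gene Fn1 in 92.1% and the MHC class II gene H2-Aa in all. The cells below 10 held Ear2 in 2.86%, Lyz1 in 8.57%, Fn1 in 65.7% and H2-Aa in 37.1%, and their median depth was 4260 UMIs against 6238.5. Retnla and Fcrls were thus found together in myeloid cells under the C1q threshold, while Lyve1, Cd209f and Cd209g were not found in these cells.

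Against other normal myeloid cells as a whole, 6 of 7 genes with enough UMIs were higher in C1q-positive cells, beside 11.3% of 1448 genes higher and 8.84% lower. Folr2 was 44.4-fold higher (16.9 to 165), Cd209f at least 47.4-fold, Cd209g at least 27.4-fold, Lyve1 at least 25.7-fold and Retnla 2.42-fold (2.35 to 2.49). Fcna was 144-fold higher, with an interval from 25.3 to 5725 because other myeloid cells held 1 UMI. The seventh gene, Fcrls, did not reach the ratio of 2.

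Tumor macrophages held little of those of the genes that had counts in the tumor library. Of the 1000 tumor cells 132 were C1q-positive macrophages, with 1238253 UMIs and a median of 7932.5 UMIs per cell, and their C1q genes stood at 5322 CPM in sum against 7922 CPM in the normal cells. Summed over the 9 genes the level was 121.9 CPM (103 to 143) in them and 44616 CPM (43866 to 45375) in the normal C1q-positive cells. Retnla alone gave 42319 CPM of the normal sum. Retnla, Cd163, Cd209f and Cd209g had no counts in the tumor library, so no ratio is read from these sums.

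The 4 genes that could be compared were all higher in the normal cells, as were 9.22% of 3223 genes, while 31.9% were lower. This contrast too was used to choose them, and nothing is read from the count. The median log2 ratio over the 3223 genes was -0.52, and TMM scaling shifted ratios by 0.17.

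Folr2 had the highest level of the 9 in tumor macrophages. It held 95 UMIs in 26 of 132 tumor C1q-positive macrophages (19.7%), at 76.7 CPM (62.1 to 93.8), so the normal level was 5.86-fold higher (4.48 to 7.70). These macrophages held 83.3% of the tumor library's 114 Folr2 UMIs. In the 396 C1q-low tumor macrophages Folr2 stood at 3.99 CPM, against 76.7 CPM in the C1q-positive ones. After thinning, 3.79% of the tumor C1q-positive macrophages held it, against 31.9% of the normal cells.

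Fcrls held 45 UMIs in 11 tumor C1q-positive macrophages, 36.3 CPM (26.5 to 48.6), and was 13.4-fold higher in the normal cells (9.51 to 19). A single tumor cell gave 42.2% of those UMIs, and without the richest cell of each class the log2 ratio went from 3.74 to 4.41. Fcna held 6 UMIs in 4 cells, 4.85 CPM, and was 75-fold higher in the normal cells (33.4 to 209). Lyve1 held 0 UMIs in both macrophage classes of the tumor and was at least 80.5-fold higher in the normal cells.

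Against the C1q-low tumor macrophages (3255781 UMIs, median 7500 per cell) the same 4 genes were higher in normal C1q-positive cells, beside 9.16% of 5163 genes higher and 23.7% lower. Folr2 was 113-fold higher (63.7 to 217), Fcrls 316-fold (133 to 989, with 5 tumor UMIs), Fcna 592-fold (160 to 4948, with 2 tumor UMIs) and Lyve1 at least 212-fold.

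Cd209d held 5 UMIs in 1 tumor C1q-positive macrophage and fell under the UMI minimum. Retnla, Cd163, Cd209f and Cd209g were listed at 0 for the tumor library, so no ratio is given for them. In these macrophages the 9 listed endothelial markers stood at 64.6 CPM in sum with Cdh5, Tek, Cldn5 and Egfl7 at 0, 6 T cell markers at 160.7 CPM, 6 classical monocyte markers at 3293 CPM against 238.0 CPM in the normal cells, and the Rhox5, Tex19.1 and Nppb transcripts that mark a tumor cluster at 12.9 CPM. The part of these transcripts in the ratios was not tested. Tissue, library and depth cannot be told apart in this contrast.

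For each gene with tumor UMIs most of them fell in 1 class, as the plot of UMI shares by class shows. Lyve1 had 6 UMIs in the library, 5 of them in Rhox5-positive cells, 1 UMI in each. Fcna had 47 UMIs, 78.7% of them in 28 Rhox5-positive cells whose median depth was 61647 UMIs, and the level there was 4.09 CPM (2.88 to 5.64). In both cases detection lay in the deepest cells of the library at a level under 5 CPM. Fcrls had 70.3% of its 64 UMIs in C1q-positive macrophages.

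**Figure D2:**
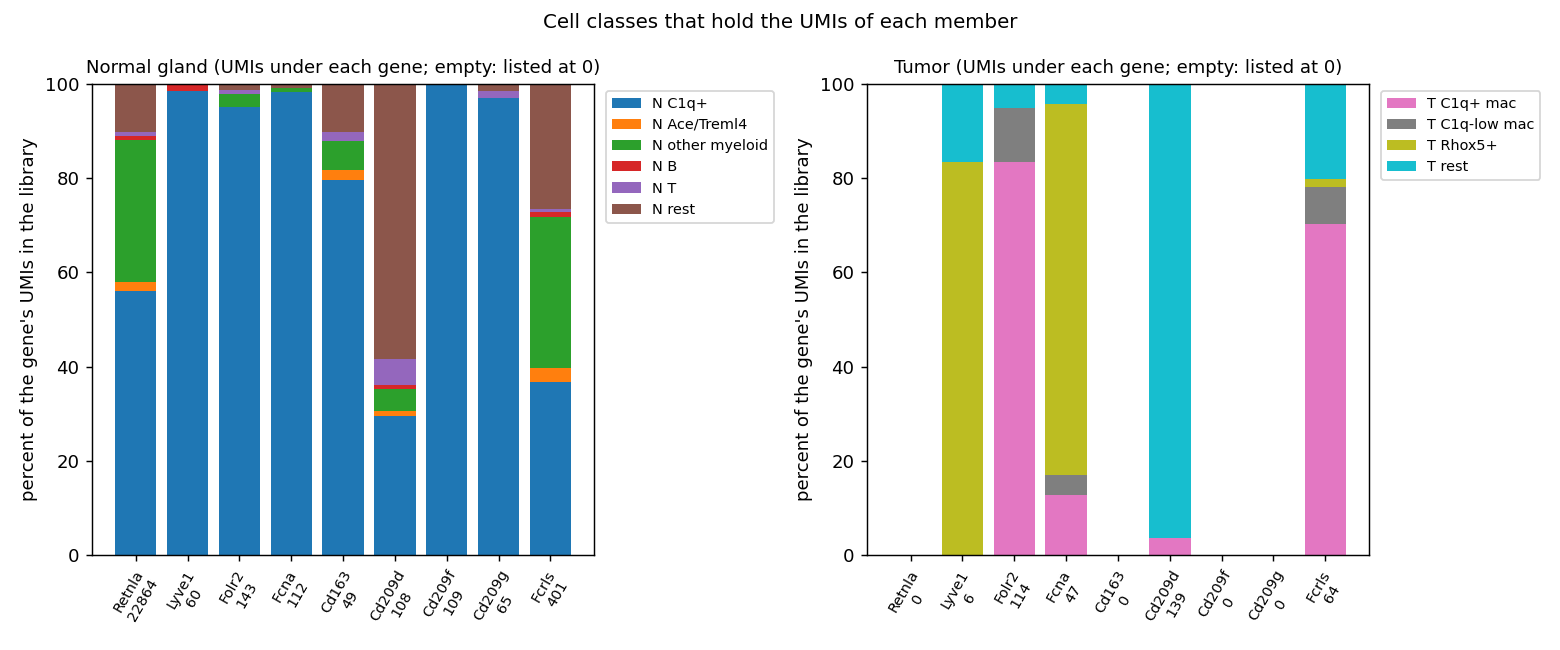
Percent of each gene's UMIs held by each cell class, for the normal library (left) and the tumor library (right), with the UMIs per gene under its name; a gene listed at 0 has no bar. C1q-positive cells hold 95.1% or more of Lyve1, Folr2, Fcna, Cd209f and Cd209g in normal gland, and in the tumor Folr2 and Fcrls lie mostly in C1q-positive macrophages, Fcna and Lyve1 in Rhox5-positive cells and Cd209d in the remaining cells.

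Cd209d marked other cells as well. Outside the C1q-positive cells, 26 normal cells held 76 of its UMIs, and 23 tumor cells that were not macrophages held 134 of the tumor library's 139 UMIs. Those 23 tumor cells held Cd209a, a family member that dendritic cells of mice carry, in 82.6% at 878.9 CPM, against 8.95 CPM in the remaining tumor cells outside the macrophages. They held H2-Aa in 95.7%, the lectin genes Clec10a in 65.2% and Mgl2 in 56.5%, and Flt3, the receptor gene of dendritic cells, in 39.1%. C1qa was in 1 of the 23.

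The 26 normal cells held Cd209a in 57.7%, Retnla in 69.2%, Mgl2 in 46.2%, and Cd209f and Folr2 in none. The 21 C1q-positive cells with Cd209d held Mgl2 in 95.2%, Retnla in all, Folr2 in 76.2% and Cd209f in 61.9%. They also held Cd209a in 42.9%, at 158.7 CPM, against 38.6 CPM in C1q-positive cells without Cd209d.

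Within the 94 normal C1q-positive cells most cells held several of the genes, which were chosen in part for joint detection. The median cell held 4 of the 9, or 3 without Retnla, and 69 cells (73.4%) held at least 3. After thinning to 1000 UMIs 39.4% held at least 3, and 42.6% when 2 UMIs were needed for each. By pairs, Fcna was found with Retnla in 37 cells, Cd209d in 8, Cd209f in 15 and Fcrls in 20. The products of their shares would give 38.4, 9.38, 15.2 and 21 cells. Lyve1 with Fcrls, given below, also lay under that number, and every other pair lay above it. In tumor C1q-positive macrophages 33 of 132 cells held any and none held 3 or more. Retnla, Cd163, Cd209f and Cd209g were listed at 0 for the tumor library, so fewer genes could be counted there. The number of genes detected had a Pearson correlation of 0.12 with depth and 0.26 with C1q UMIs over the 94 cells, which share 1 library.

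Cd209f and Cd209g had the highest correlation among the pairs of the 9 genes. Both were present in 23 cells, 67.6% of the Cd209f-positive and 92.0% of the Cd209g-positive cells, while 2 of the 60 cells without Cd209f held Cd209g. The correlation of their log levels was 0.70 over the 94 cells and 0.53 after thinning. As the sequences above show, the shared transcript windows leave part of their reads uncertain.

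Folr2 accompanied the Cd209 genes. It was in 88.2% of Cd209f-positive and 43.3% of Cd209f-negative cells, and its correlation with Cd209f was 0.52 (0.54 after thinning). In Cd209f-positive cells Folr2 was 2.80-fold (1.97 to 4), Lyve1 2.07-fold (1.20 to 3.57) and Cd209g 65.4-fold (17.3 to 552) the level in the other C1q-positive cells, beside 2.93% of 683 genes higher and 4.69% lower. Fcna at 0.959-fold, Retnla at 0.971-fold and Fcrls at 1.56-fold did not reach the ratio of 2. The median depths were 2617.5 and 2758 UMIs. Gas6, the ligand of the TAM receptors that act in the uptake of dying cells, was 4.82-fold higher (2.61 to 9.31) and Sepp1, for selenoprotein P, 2.18-fold (1.87 to 2.54).

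**Figure D3:**
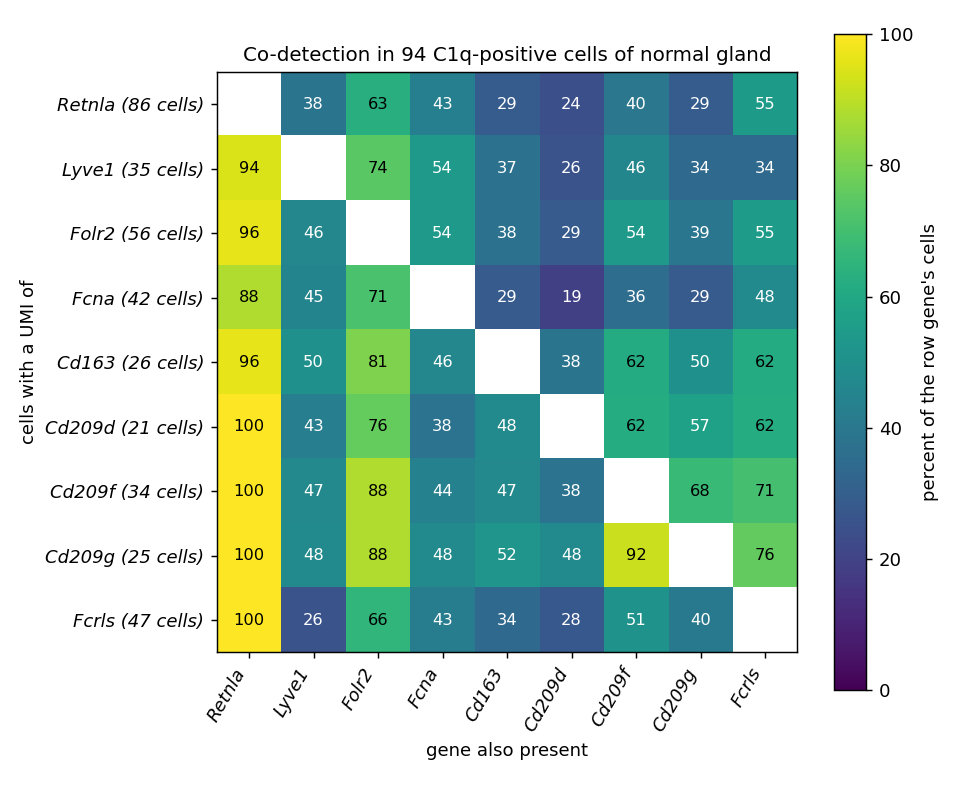
Percent of the cells holding the gene of a row that also hold the gene of a column, over the 94 C1q-positive cells of normal gland at 1 UMI or more; the number of cells is given beside each row gene. The Cd209g row reaches 92 under Cd209f and 88 under Folr2, and the lowest value between Lyve1 and Fcrls is 26, for Lyve1 in Fcrls-positive cells.

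Lyve1 and Fcrls were found together in somewhat fewer cells than their shares would give. Both were present in 12 cells, against 17.5 from the product of their shares. Fcrls was in 34.3% of Lyve1-positive and 59.3% of Lyve1-negative cells, with a correlation of -0.23 (-0.18 after thinning). Lyve1 alone was in 23 cells, Fcrls alone in 35 and neither in 24. Their median depths were 2232 UMIs for Lyve1 alone, 3205 for both, 3868 for Fcrls alone and 2103.5 for neither.

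Lyve1-positive cells (35 cells, median 2632 UMIs) were set against Lyve1-negative cells (59 cells, median 2844 UMIs). Fcna was higher in the Lyve1-positive cells, 674.7 against 190.4 CPM, a ratio of 3.54 (2.36 to 5.42), and Fcrls was lower, 268.0 against 607.1 CPM, a ratio of 0.442 (0.283 to 0.667). These were 2 of 6 genes compared, beside 1.76% of 683 genes higher and 1.76% lower. Folr2 at 1.80-fold, Cd209g at 1.85-fold, Cd209f at 1.22-fold and Retnla at 0.679-fold did not reach the ratio of 2, and Cd163 at 2.87-fold and Cd209d at 1.80-fold had too few UMIs to be called. With 2 UMIs needed to call a cell Lyve1-positive, the log2 ratio of Fcna went from 1.83 to -0.20, while that of Fcrls went from -1.18 to -1.36. That minimum left 10 Lyve1-positive cells, and the deepest of them held 16617 UMIs with 1 of Fcna.

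Most MHC class II genes did not reach the ratio of 2 in this division. Summed over 7 genes they stood at 23634 CPM in Lyve1-positive and 42918 CPM in Lyve1-negative cells, a ratio of 0.551 (0.527 to 0.576) that also did not reach it. Of 6 that could be compared 2 were lower, H2-Eb1 at 0.495-fold (0.440 to 0.557) and H2-DMa at 0.408-fold (0.282 to 0.578), and the median log2 ratio was -0.90 against 0.03 over the 683 genes. Ear2 was lower, with 3 against 49 UMIs, and Lyz1, with 8 against 308. Cd36, for a fatty acid and oxidised lipid receptor and the 1 other scavenger receptor gene with enough UMIs, was 2.25-fold higher (1.66 to 3.07), and of 16 other resident macrophage genes Ltc4s, for leukotriene C4 synthase, was the 1 that was higher, at 2.20-fold (1.67 to 2.89). Of the 12 genes higher in Lyve1-positive cells, Tubb5, Tmsb10, Hmgb1, Tuba1b and H2afz, which include cytoskeletal and chromatin genes, drew 82.1%, 69.2%, 65.8%, 50% and 43.3% of their UMIs there from a single cell.

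The C1q-positive cells were also divided by Fcrls. In the 47 Fcrls-positive cells Retnla was 3.38-fold higher (3.23 to 3.54), Cd209g 4.14-fold (2.09 to 9.14) and Cd209f 2.92-fold (1.83 to 4.85), and Fcna was lower at 0.447-fold (0.295 to 0.668), while Folr2 at 1.63-fold and Lyve1 at 0.536-fold did not reach the ratio of 2, beside 3.07% of 683 genes higher and 4.39% lower. Of 6 MHC class II genes 5 were higher, among them H2-Eb1 at 2.43-fold (2.17 to 2.72) and Cd74, for the invariant chain, at 2.08-fold (1.95 to 2.21). Ear2 was 12.8-fold higher (4.12 to 64.0), while Ltc4s at 0.373-fold (0.277 to 0.497) and the complement gene C4b at 0.404-fold (0.279 to 0.578) were lower. Fcrls-positive cells were also deeper, with a median of 3445 against 2148 UMIs. The part of depth was not tested beyond thinning and a minimum of 2 UMIs, under which the log2 ratio of the class II sum went from 1.11 to 0.56 and 0.78.

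**Figure D4:**
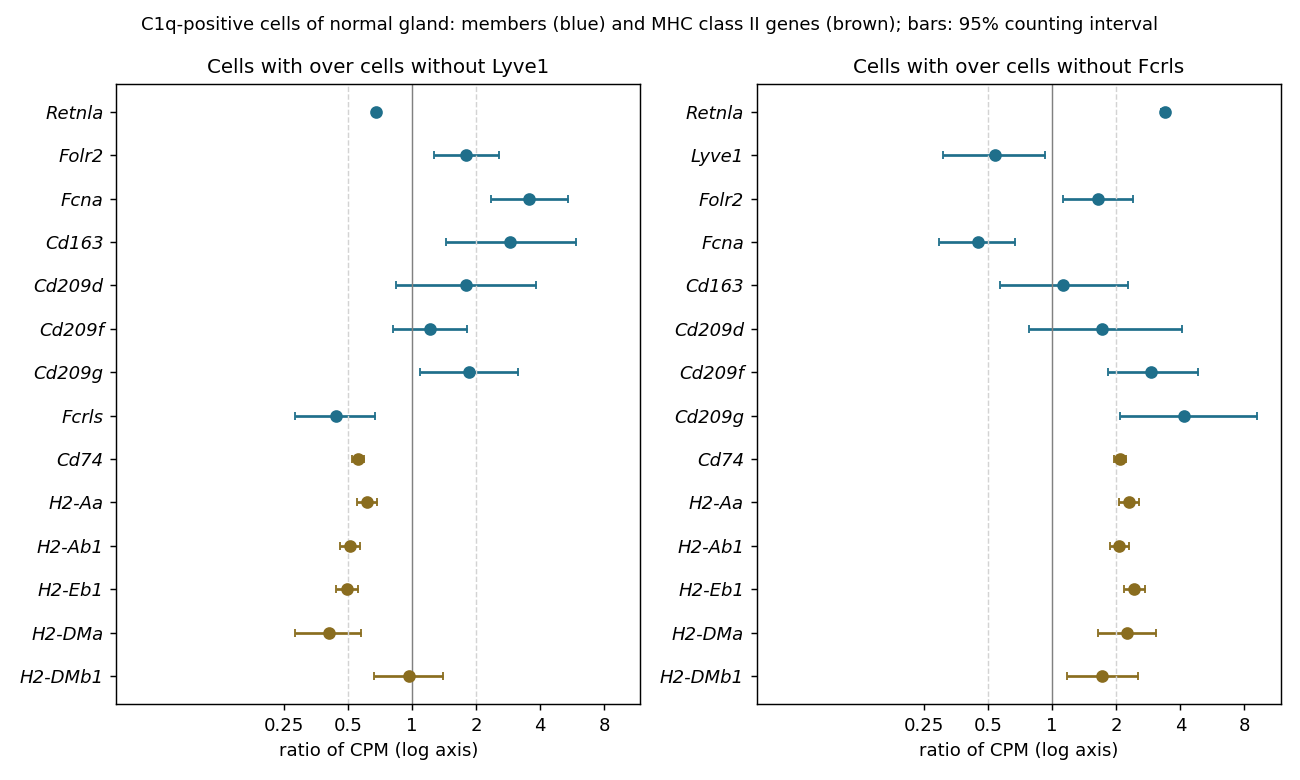
Ratio of CPM (log axis, with 95% counting intervals; dashed lines at 0.5 and 2) between C1q-positive cells with and without Lyve1 (left) and with and without Fcrls (right), for the other genes described (blue) and MHC class II genes (brown). Fcna lies at 3.54 on the left and 0.447 on the right, while the class II genes lie mostly below 1 on the left and near 2 on the right.

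The class II sum was lowest in cells with Lyve1 alone, at 16767 CPM (15824 to 17751), and highest in cells with Fcrls alone, at 50184 CPM (48983 to 51407). Cells with both stood at 36417 CPM and cells with neither at 27542 CPM. Retnla followed Fcrls and not Lyve1, with 19552 CPM in cells with Lyve1 alone, 56464 CPM in cells with both, 62609 CPM in cells with Fcrls alone and 16496 CPM in cells with neither. Fcna stood higher in both Lyve1-positive groups and was lowest in cells with Fcrls alone, with 724.7, 581.8, 136.4 and 304.6 CPM in the same order. Lyz1 stood at 42.6 and 132.2 CPM in the Lyve1-positive groups and at 1667 and 1411 CPM in the Lyve1-negative groups, in the same order. The Fcna pattern depended on how Lyve1 was detected. With both genes taken after thinning, 4 of 15 Lyve1-positive cells (26.7%) and 26.6% of the 79 Lyve1-negative cells held Fcna. With cells grouped by Lyve1 before thinning, thinned Fcna was in 37.1% of the positive and 20.3% of the negative cells. Under the stricter Lyve1 minimum given above, Fcna was not higher in Lyve1-positive cells. These were 10 cells, and the deepest held 16617 UMIs with 1 of Fcna, so the value leans on that cell.

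**Figure D5:**
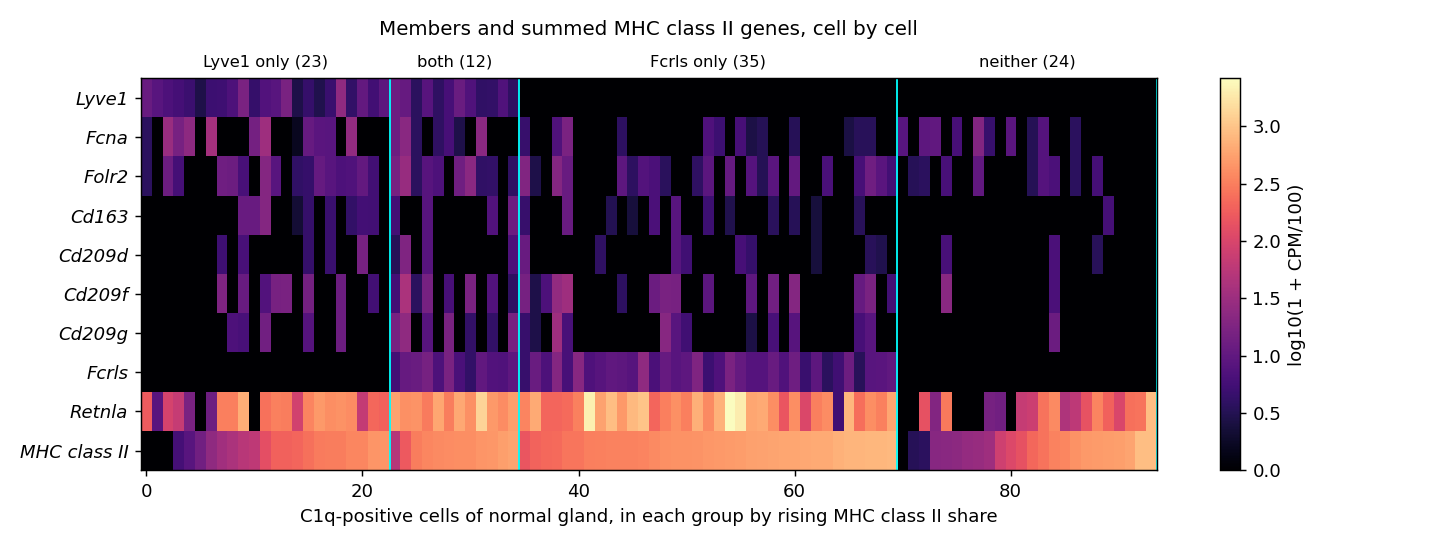
The 94 C1q-positive cells of normal gland in columns, grouped by detection of Lyve1 and Fcrls (23, 12, 35 and 24 cells) and ordered in each group by the share of MHC class II UMIs; colour gives log10(1 + CPM/100). MHC class II is dark in several cells of the Lyve1-only and the neither group, Retnla is bright in the cells with Fcrls, and the Cd209f and Cd209g bands fall in the same columns.

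The genes most like the 9 over these cells, by Pearson correlation with their mean log level among 576 other genes, were Pf4 (0.57), Sepp1 (0.53), F13a1 (0.52), Serinc3 (0.49), Ccl6 (0.46), Gas6 (0.45), Mgl2 (0.43) and Itm2b (0.42). Pf4 encodes platelet factor 4, F13a1 a subunit of coagulation factor XIII, Ccl6 a chemokine and Mgl2 a galactose-binding lectin. Pf4 stood at 1745 CPM in normal and 1375 CPM in tumor C1q-positive cells and at 0 in monocytes, Sepp1 at 2307, 250.4 and 118.4 CPM, and Mgl2 at 710.6, 21.0 and 10.8 CPM. Itm2b was higher in the tumor cells, at 2401 against 1957 CPM. A high likeness to the 9 genes within normal gland thus went with low tumor levels for some of these genes and not for others.

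Related genes gave a mixed account of the tumor contrast. Of 19 other resident macrophage genes compared 12 were higher in normal than in tumor C1q-positive cells and 0 lower. Their median log2 ratio was 2.58, against -0.52 over all genes. Apoe was 9.74-fold higher (9.22 to 10.3), Ccl6 4.37-fold (4.02 to 4.76), and Pf4 at 1.27-fold did not reach the ratio of 2. Over all genes 9.22% were higher and 31.9% lower in this contrast. Against monocytes 15 of 17 were higher, beside 19.0% of all genes. Of 10 other C-type lectin genes 3 were higher, Mgl2 at 33.8-fold (22.5 to 53.0), Clec10a at 6.22-fold and the mannose receptor gene Mrc1 at 2.59-fold (2.01 to 3.33), and 6 were lower. Clec4n, the gene of the fungal receptor dectin-2, had 2 UMIs in the normal and 1115 in the tumor cells.

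Other scavenger receptors divided likewise, with Cd36 higher at 3.68-fold (2.99 to 4.53), Msr1 lower at 0.150-fold (0.0830 to 0.25), Axl lower at 0.372-fold (0.165 to 0.735) and 3 of 6 neither. The MHC class II genes were higher in the normal cells for 5 of 6, and of the 3 C1q genes none reached the ratio of 2. Of 9 pan-macrophage markers 1 was higher, Csf1r at 3.38-fold, and 4 were lower, the Fc receptor gene Fcgr1 the furthest with 4 against 876 UMIs. These classes thus differed in general macrophage genes as well as in the 9 described, and the lists were chosen with earlier results of these data known.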

How the data were processed

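Single-cell RNA of sorted cells from 1 normal mammary gland library and 1 EO771 tumor library was analysed. The authors deposited raw UMI counts per gene and cell. Tools named, per the submitters' processing notes, were STAR 2.5.1b, Cell Ranger 2.0.2 and Seurat, with mm10 as the build and no settings stated. Cells named control were taken as NEC on that word alone.

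Cells were kept (1801 NEC, 1000 TEC) if they had 1000 UMIs and 500 genes or more and no more than 10% of UMIs from mitochondrial genes. Classes were set by marker counts, without clustering: C1q sum of at least 3 UMIs; Ace or Treml4 of at least 1 UMI; a myeloid minimum of 1% of UMIs from Lyz2, Cd68, Csf1r, Adgre1, Fcer1g, Tyrobp and Ctss; at least 3 UMIs of Rhox5, 2 of B cell or 1 of T cell genes for those classes. In the tumor 26 cells with C1q failed the myeloid minimum. No doublet caller was run. Leaving out cells with Cd3d, Cd3e, Cd3g, Cd79a, Ms4a1, Dcn or Epcam served in its place.

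UMIs were summed per class and scaled to 1000000 (CPM, exact Poisson intervals). Ratios have exact Clopper-Pearson intervals conditional on the gene's total, for genes with at least 50 UMIs over both sums; a ratio of at least 2 either way with an interval excluding 1 was called higher or lower. With a single library for each tissue, nothing was tested. A sum of 0 was set to 3 counts over the class for a bound. Thinning drew 1000 UMIs per cell. The rule for ratios was tested on simulated counts. Alternatives changed the thresholds, scaling, depth and detection. The genes and lists were chosen with earlier results of these data known, and the class of other myeloid cells and the divisions by Fcrls and Cd209f were added after seeing the data. Named genes are the 9, the 8 most correlated with their mean of log(1 + CPM/100), and up to 4 genes of each list with the highest UMI totals; others named (Ear2, Lyz1, Fn1, Tubb5, Tmsb10, Clec10a, Flt3 and lower-ranked list genes) were chosen after their values were seen. Python 3.11.15, numpy 2.4.6, scipy 1.17.1, pandas 2.3.3 and matplotlib 3.10.9 were used.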

Additional observations from a re-analysis of the deposited data

How the results depend on the processing

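No paired analysis was possible because each group is 1 library. The 9 genes' ratios to monocytes or tumor macrophages kept their direction and call under each alternative wherever the UMI minimum was met. Without cells under 2000 UMIs, and with the myeloid minimum also set for C1q-positive cells, the genes called fell from 7 to 5 against monocytes, where Lyve1 and Cd209g fell under that minimum, and from 4 to 3 against tumor macrophages, where Lyve1 did. The level summed over the 8 genes other than Retnla in normal C1q-positive cells was 2297 CPM; it was 2059 CPM when those cells also had to meet the myeloid minimum, 2521 CPM as a mean of per-cell CPM, 2114 CPM without the richest cell and 2479 CPM after thinning. With the myeloid minimum Lyve1 went from 195.0 to 133.4 CPM, Cd209f from 360.3 to 276.4 CPM and Cd209g from 208.2 to 128.7 CPM. Retnla rose from 42319 to 47958 CPM. These levels left their main intervals, and those of the other genes did not. The share of normal C1q-positive cells with at least 3 of the 9 genes went from 73.4% to 39.4% after thinning and 42.6% at 2 UMIs. Over all genes, the count lower than in monocytes went from 92 to 44 with TMM scaling, 176 without a myeloid minimum for monocytes and 368 with a minimum of 10 UMIs per gene, and the count higher from 166 to 272 with that minimum. Against tumor C1q-positive macrophages the count lower went from 1029 to 448 with a myeloid minimum of 2%, and the count higher from 297 to 540 with all tumor macrophages and to 632 with 10 UMIs per gene. In the division by Lyve1, the 2 genes called became 0 after thinning. Thinning lowers UMI totals, so genes can fall under the minimum of 50 UMIs whatever their ratio. This loss of calls therefore cannot show a loss of the difference. The log2 ratio of Fcna reversed to -0.20 when 2 Lyve1 UMIs were needed, which left 10 Lyve1-positive cells. Folr2 (1.21) and Cd209g (1.14) were then called higher. The log2 ratio of the MHC class II sum in Fcrls-positive cells went from 1.11 to 0.56 after thinning and 0.78 at 2 UMIs, no longer past the ratio of 2. The cause of these changes was not tested. With 94, 26 and 132 cells, genes under 50 UMIs, Cd163 and Cd209d among them, could not be called.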

Other observations

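Several other genes differed between C1q-positive cells with and without Cd209f, and were named after their values were seen. Saa3, for an acute-phase serum amyloid protein, had 0 UMIs in the Cd209f-positive and 205 in 16 Cd209f-negative cells. Fn1, for fibronectin, was lower in Cd209f-positive cells at 0.129-fold (0.0824 to 0.193). Fosb, an immediate early gene, was higher at 2.74-fold (2.12 to 3.57), in 30 of 34 against 38 of 60 cells. Hspa1a, a heat shock gene, had 74 UMIs in 9 cells against 14 UMIs in 10 cells, and a single cell held 51.4% of the 74.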
